A study of Homo sapiens with 12 samples.

Results

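The mitosis and spindle checkpoint genes are 35 human genes that were chosen by name because their products act between entry into mitosis and the separation of the daughter cells. Each was measured with 1 Affymetrix probe set, the one with the highest mean log2 signal over 12 arrays among those annotated to that gene symbol alone. All 35 were found among 19775 genes with such a probe set, and all 35 were among the 16099 genes kept by a filter on low signal. The lowest signal of any of them on any array was 25.6, for PLK1 on 1 AsPC-1 PMA array, which lies above the filter level of 8.18 to 10.2, so none was kept through 1 group alone.

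The arrays form 4 groups of 3. BxPC-3 cells given PMA were set against untreated BxPC-3 cells, and AsPC-1 cells given PMA against untreated AsPC-1 cells. BxPC-3 is a cell line from a primary pancreatic tumour, and AsPC-1 is a line of pancreatic cancer cells from ascites, which the series calls metastatic. PMA, a phorbol ester that activates protein kinase C, was given at 1 µM for 4 h from a stock in DMSO, and both treated and control cells had been kept overnight in reduced serum. The labels do not say whether untreated cells received DMSO. The replicates of BxPC-3 were passages 7, 9 and 11 and those of AsPC-1 passages 8, 10 and 12, so each line stands for 1 culture history and n counts passages.

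In a dividing cell, cyclin B with the kinase CDK1 starts mitosis, kinetochores built on centromeres attach the chromosomes to spindle microtubules, and unattached kinetochores keep the checkpoint active through the kinases TTK and BUB1 and the proteins MAD2L1 and BUB1B. Once all chromosomes are attached, CDC20 activates the ubiquitin ligase APC/C, which together with the conjugating enzyme UBE2C marks securin (PTTG1) and the mitotic cyclins for destruction. Transcription of most of these genes is low in G1 and peaks in G2 and mitosis, and it is known to run through 2 kinds of promoter element. The CHR element is bound by the MuvB core, which forms the repressive DREAM complex in resting cells and works with B-MYB and FOXM1 in dividing cells, and CCAAT boxes are bound by NF-Y.

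Of the 35 genes, 28 matched a promoter in a RefSeq table of build GRCh38.p14, which gives 250 bases before and 50 bases after each gene start. TTK, AURKA, BIRC5, UBE2C, TPX2, RACGAP1 and FOXM1 were not among them. The 150 bases before the start are printed 5′ to 3′ for 7 genes that the results turn on or that differ in these elements. Capitals mark the CHR letters TTTGAA (or TTCAAA, the same on the other strand) and the CCAAT box (or ATTGG). The variant TTTAAA is left in lower case.
BUB1B, chr15:40160919-40161068, plus strand: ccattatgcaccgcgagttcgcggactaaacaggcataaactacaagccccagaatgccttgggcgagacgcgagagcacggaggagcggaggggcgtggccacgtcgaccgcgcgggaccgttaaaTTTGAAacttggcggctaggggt
HMMR, chr5:163460482-163460631, plus strand: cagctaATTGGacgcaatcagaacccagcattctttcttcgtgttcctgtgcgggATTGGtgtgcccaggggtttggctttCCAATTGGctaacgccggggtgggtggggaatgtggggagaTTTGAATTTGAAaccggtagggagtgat
PLK1, chr16:23678739-23678888, plus strand: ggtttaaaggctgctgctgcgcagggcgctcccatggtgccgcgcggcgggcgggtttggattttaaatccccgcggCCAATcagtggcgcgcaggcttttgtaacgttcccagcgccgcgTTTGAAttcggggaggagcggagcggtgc
CCNB2, chr15:59104996-59105145, plus strand: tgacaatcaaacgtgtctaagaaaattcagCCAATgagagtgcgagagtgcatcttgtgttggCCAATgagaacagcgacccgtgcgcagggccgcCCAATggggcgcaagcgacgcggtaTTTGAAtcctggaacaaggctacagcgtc
MKI67, chr10:128126424-128126573, minus strand: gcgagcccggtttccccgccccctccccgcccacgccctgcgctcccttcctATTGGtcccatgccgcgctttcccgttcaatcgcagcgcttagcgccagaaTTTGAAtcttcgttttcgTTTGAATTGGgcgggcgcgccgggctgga
CDC20, chr1:43358831-43358980, plus strand: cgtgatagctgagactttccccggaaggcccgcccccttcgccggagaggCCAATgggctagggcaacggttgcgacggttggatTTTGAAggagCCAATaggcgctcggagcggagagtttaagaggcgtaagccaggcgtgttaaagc
CCNA2, chr4:121823884-121824033, minus strand: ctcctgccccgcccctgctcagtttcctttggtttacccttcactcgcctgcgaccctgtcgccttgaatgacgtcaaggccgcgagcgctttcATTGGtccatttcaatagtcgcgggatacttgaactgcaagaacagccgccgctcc
These 7 stretches differ in their layout. BUB1B holds 1 CHR element, 23 bases before the start, and no CCAAT box in the 150 bases shown. HMMR holds 2 CHR elements end to end with 4 CCAAT boxes upstream, of which a pair overlaps. CCNB2 has 3 CCAAT boxes and 1 CHR element. In MKI67 a CHR element shares its last base with a CCAAT box on the other strand. CCNA2, which had 1 of the lowest AsPC-1 changes, shows 1 CCAAT box and no TTTGAA.

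Over the whole 300 bases, TTTGAA on either strand was found in 21 of the 28 promoters (75%), against 18.2% of the 27305 genes in the table. CCAAT on either strand was found in 23 of 28 (82.1%), against 39.7%, and both together in 17 (60.7%), against 7.26%. The variant TTTAAA was found in 10 (35.7%), against 14.5%. In 12 of the 28 (42.9%) a TTTGAA on either strand had its most upstream base within the 50 bases before the start, against 3.22% of all genes in the table. In NDC80 and SPC25 that base was 3 bases before the start, so the element ran past it. The median log2 change after PMA was -0.38 in BxPC-3 and -1.05 in AsPC-1 for the 21 genes with TTTGAA, and -0.27 and -0.85 for the 7 without it (BUB1, CENPE, CCNA2, CCNB1, AURKB, NEK2 and PTTG1). Of these 7, CENPE, CCNB1 and PTTG1 held the variant TTTAAA, and other variants were not searched for. The 7 genes are therefore not a set without CHR elements. These matches describe letters in a window and show no binding.

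**Figure D1:**
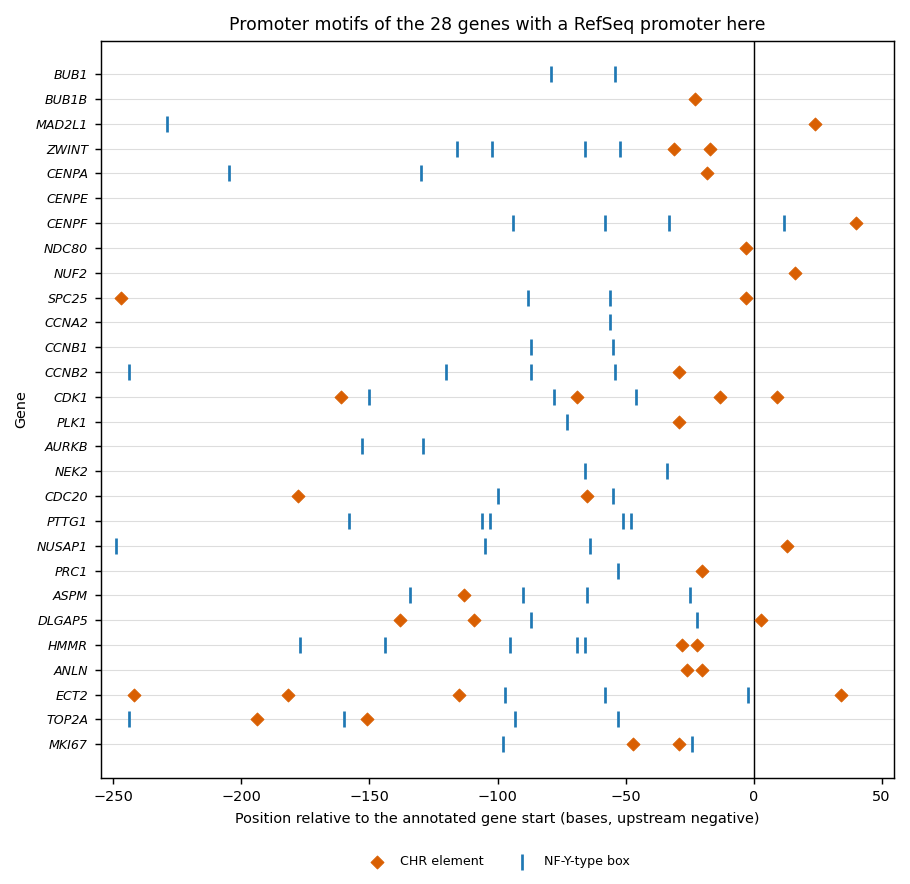
Position of each CHR element TTTGAA (diamonds) and each NF-Y-type CCAAT box (bars) relative to the annotated gene start, in bases. Shown are the 28 genes with a promoter in the RefSeq table, and the variant TTTAAA is not drawn. In 12 genes a TTTGAA has its most upstream base in the last 50 bases before the start, while most CCAAT boxes lie farther upstream. CENPE shows neither TTTGAA nor a CCAAT box, but its promoter holds the variant TTTAAA.

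The arrays shared a linear scale, with a trimmed mean signal of 100.014 to 100.018 on each. On the log2(signal + 3) scale used here they were not level. The median over all genes tested ran from 5.81 and 5.82 on AsPC-1 PMA replicates 3 and 2 to 6.34 on AsPC-1 untreated replicate 1. Of 6 epithelial markers, KRT8, KRT18, KRT19, EPCAM and CDH1 had signals of at least 473 on every array, and KRT7 ranged between 56.9 and 3360. Of the markers of fibroblasts, immune cells and endothelium, only LUM exceeded 91.8 on any array, with up to 3400. SMAD4, which is known to be deleted in BxPC-3, had signals of 0.104 to 4.60 on the BxPC-3 arrays and 111 to 214 on the AsPC-1 arrays. AsPC-1 PMA replicate 1 (passage 8) stood apart from its group, with a correlation across genes of 0.921 with the other AsPC-1 PMA arrays and of 0.964 with the untreated passage 8 array. On that untreated array 33 of the 35 mitotic genes were above their group mean, by 0.50 log2 units on average, and on the PMA array 25 of 35, by 0.30. Both arrays were also high over all genes tested. Their medians were 6.34, against 6.10 and 6.09 on the other untreated AsPC-1 arrays, and 6.23, against 5.82 and 5.81 on the other AsPC-1 PMA arrays. The 3' to 5' signal ratio of the ACTB control probe sets was 1.84, 1.99 and 2.02 on the BxPC-3 PMA arrays and 2.56, 2.95 and 4.14 on the untreated BxPC-3 arrays.

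In BxPC-3, 31 of the 35 genes had a lower mean of log2(signal + 3) after PMA, against 50% of all genes. Their median log2 change was -0.38, against 0 over all genes tested, with a range between -1.74 for the checkpoint gene BUB1B and 1.05 for UBE2C. A gene was called changed at an adjusted p under 0.05. The checkpoint genes BUB1B, TTK and MAD2L1 and the spindle gene HMMR were called lower (4 of 35, against 3.3% of all genes), and UBE2C was called higher (1 of 35, against 2.52%). At an unadjusted p under 0.05 the counts were 10 lower, against 11.7%, and 1 higher, against 9.17%. The PMA and untreated arrays did not overlap for 19 genes in the lower direction, against 21.9% of all genes, and for UBE2C in the higher direction, against 17%. Within each of the 3 passages 21 genes were lower, against 26.8%. The ACTB ratios given above also separated these 2 groups, and their part in the results was not tested. In these bulk samples, fewer cells in G2 and mitosis and less RNA of these genes per cell cannot be told apart.

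All 35 genes had a lower mean after PMA in AsPC-1, against 59% of all genes, with log2 changes between -1.97 for the kinetochore gene NDC80 and -0.08 for the cytokinesis gene ECT2. Their median was -0.89, against -0.10 over all genes tested. Here 10 of the 35 were called lower (TTK, MAD2L1, NDC80, CCNA2, CCNB1, CDK1, AURKA, HMMR, TOP2A and MKI67), against 0.721% of all genes tested, and 0 were called higher, against 1.24%. At an unadjusted p under 0.05 the counts were 30 lower, against 10.1%, and 0 higher, against 6.43%. The 3 PMA arrays lay wholly below the 3 untreated arrays for 27 of the 35 genes, against 8.37% of all genes, and 32 of 35 were lower after PMA within each of the 3 passages, against 23.1%. With each array centred on its median, 6 genes were called lower in AsPC-1. All 35 were lower in that setting, with a median of -0.85, against -0.06 over all genes.

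**Figure D2:**
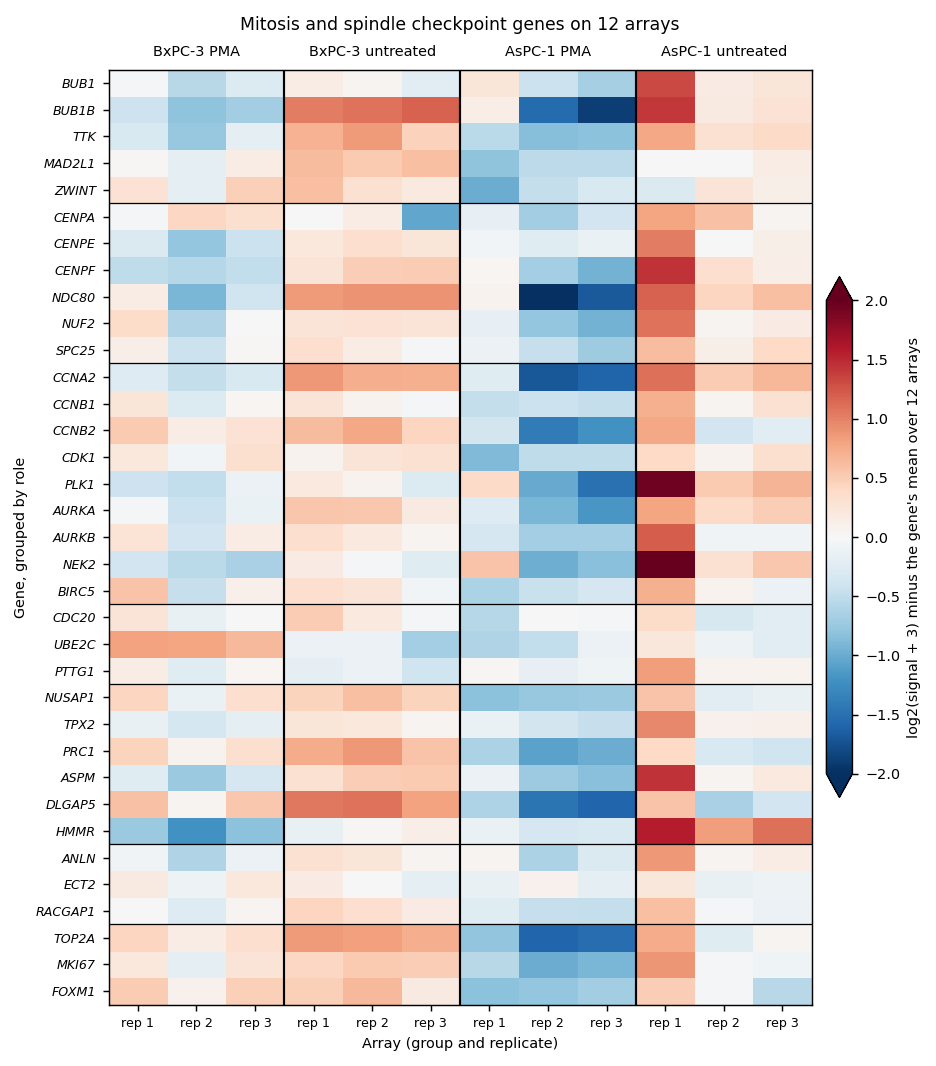
Level of each of the 35 genes on each of the 12 arrays, as log2(signal + 3) minus the gene's mean over the arrays, with genes in rows by role and arrays in columns by group and replicate. Blue is deepest in AsPC-1 PMA replicates 2 and 3, red in AsPC-1 untreated replicate 1, where 33 of 35 genes lie above their group mean, and UBE2C is reddest in the 3 BxPC-3 PMA columns.

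**Figure D3:**
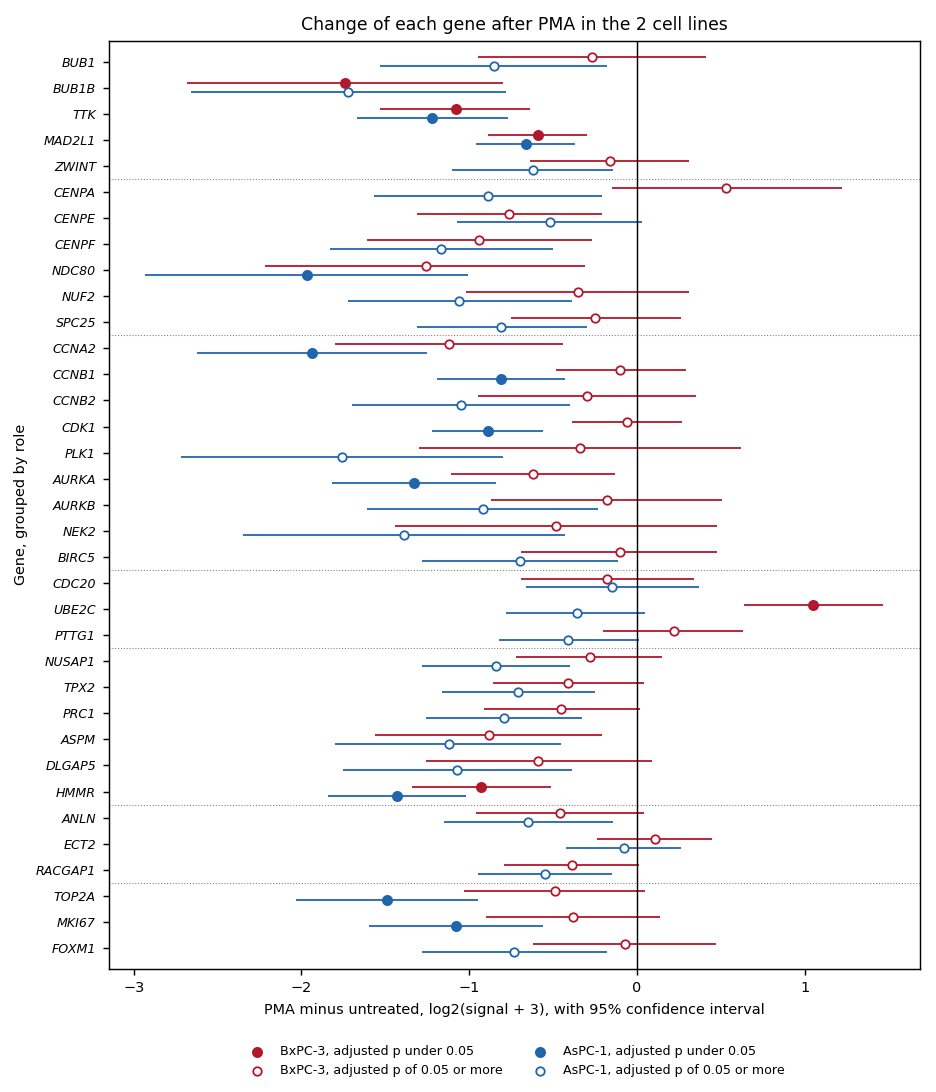
PMA minus untreated log2(signal + 3) of each gene in BxPC-3 (red) and AsPC-1 (blue) with the 95% confidence interval of the fit to 12 arrays, and filled points where the adjusted p was under 0.05. All 35 blue points lie left of 0, 31 of the 35 red points do, and UBE2C is the only filled point on the right.

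The number of calls depended on single arrays, and all 12 arrays share 1 estimate of the spread. With the passage as a block, 10 genes were called lower and 1 higher in BxPC-3 and 25 lower in AsPC-1, while 10.2% and 5.62% of all genes were called in either direction. Without AsPC-1 PMA replicate 1 these counts were 10 lower and 1 higher in BxPC-3 and 27 lower in AsPC-1, beside 14.9% and 19.5% of all genes, and the 8 genes not called in AsPC-1 were then ZWINT, CENPE, BIRC5, CDC20, UBE2C, PTTG1, ECT2 and FOXM1. Without AsPC-1 PMA replicate 2 or replicate 3, CDK1 and HMMR alone were called in AsPC-1 (2 genes), beside 0.385% and 0.379% of all genes, and without AsPC-1 untreated replicate 3, 5 were, beside 0.547%. Leaving out BxPC-3 PMA replicate 1 or 3, or any 1 untreated BxPC-3 array, left 6 calls in AsPC-1, of TTK, CCNA2, CDK1, AURKA, HMMR and TOP2A, beside 0.882% to 1.05% of all genes. TTK and UBE2C were called in BxPC-3 in each of these fits. There, 9 genes were called without AsPC-1 untreated replicate 1 (7.44% of all genes), 3 without BxPC-3 PMA replicate 1 or untreated replicate 1, and 2 without BxPC-3 PMA replicate 2 or untreated replicate 2 or 3, beside 2.02% to 2.91% of all genes in these 5 fits. Fitted to its own 6 arrays alone, BxPC-3 gave 17 lower and 1 higher calls, beside 22% of all genes, and AsPC-1 gave 0 (29 genes at an unadjusted p under 0.05), as it did over all genes.

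TTK, MAD2L1 and HMMR were called lower in both lines. They are 75% of the 4 genes called lower in BxPC-3 and 30% of the 10 called lower in AsPC-1, where for all genes tested the shared calls were 7.14% and 32.8% of the 2 lists.

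Of the 5 checkpoint genes, 3 were called lower in BxPC-3 and 2 in AsPC-1, and none higher. With the passage as a block, the same 3 were called in BxPC-3 and all 5 in AsPC-1. TTK encodes the kinase MPS1, which starts checkpoint signalling at unattached kinetochores. Its signal was 217, 158 and 233 on the BxPC-3 PMA arrays and 433, 483 and 370 on the untreated arrays, a log2 change of -1.08 ± 0.21 (SE, adjusted p = 0.00899). In AsPC-1 it was 183, 147 and 151 after PMA and 460, 332 and 348 untreated, a change of -1.22 ± 0.21 (adjusted p = 0.0108). Every PMA array lay below every untreated array in both lines, and the call held under all 24 alternative settings in BxPC-3 and under 21 in AsPC-1.

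BUB1B encodes BubR1, a part of the complex that holds APC/C inactive, and had the lowest BxPC-3 change of the 35. Its signal was 171, 129 and 140 after PMA, against 470, 490.5 and 524 in untreated BxPC-3 cells, a 3.34-fold lower level (log2 change -1.74 ± 0.44, adjusted p = 0.0332). In AsPC-1 it was 252, 77.2 and 59.99 after PMA and 615, 261 and 280 untreated, and the change of -1.72 ± 0.44 did not pass (adjusted p = 0.0637) but did with the passage block (adjusted p = 0.00147, over all alternatives 3.01e-06 to 0.427). The AsPC-1 values of passage 8 were the highest of their groups on both sides, and within passages the changes were -1.28, -1.72 and -2.17. The BxPC-3 call was lost without any 1 BxPC-3 array and without the intensity trend, with adjusted p over the alternatives between 1.72e-06 and 0.127.

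MAD2L1, whose product Mad2 captures CDC20, had signals of 1113, 959 and 1215 in BxPC-3 PMA cells and 1696, 1579 and 1666 in untreated cells. Its log2 change was -0.59 ± 0.14 (adjusted p = 0.023). In AsPC-1 the signals were 627, 761 and 766 after PMA and 1094, 1098 and 1213 untreated, a change of -0.66 ± 0.14 (adjusted p = 0.0301). The groups did not overlap in either line, with levels 1.51-fold and 1.58-fold lower after PMA. A second probe set of MAD2L1 gave -0.30 in BxPC-3, and the call there held under 16 of 24 alternative settings, not with that probe set, with the mean of its probe sets, without the intensity trend or without any 1 BxPC-3 array other than PMA replicate 3. The AsPC-1 call held under 12. BUB1 (-0.27 and -0.85 in BxPC-3 and AsPC-1) and ZWINT (-0.16 and -0.62), a kinetochore protein, did not pass in either line, and with the passage block both passed in AsPC-1.

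**Figure D4:**
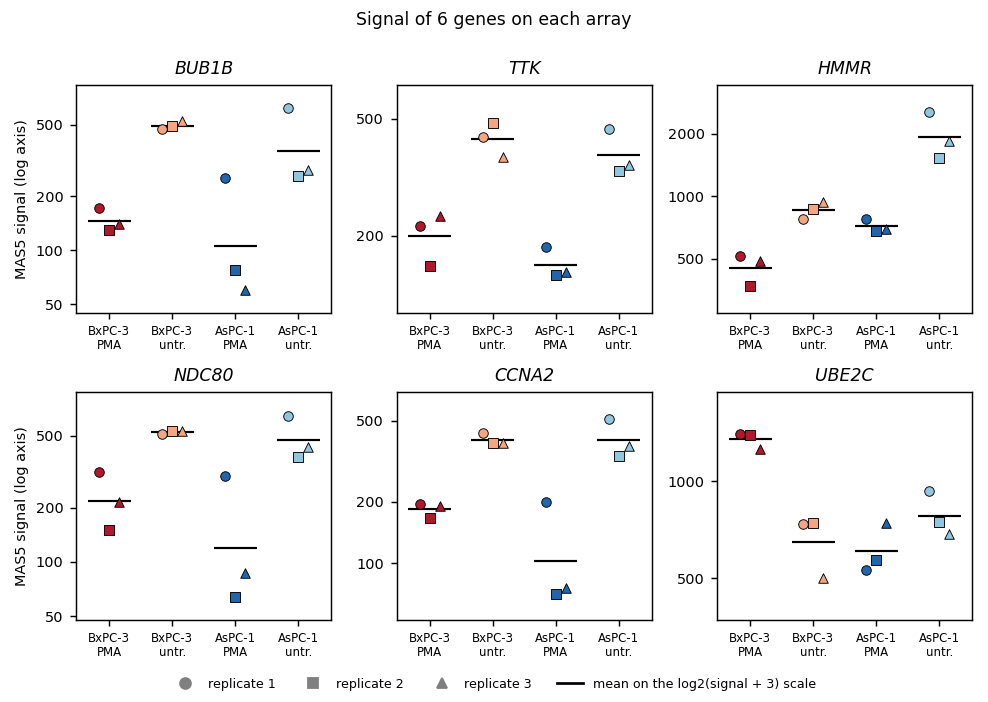
MAS5 signal on a log axis of 6 genes on each array, by group, with 1 symbol per replicate and a bar at the mean on the log2(signal + 3) scale. BUB1B, TTK, HMMR, NDC80 and CCNA2 sit lower on the PMA arrays than on the untreated arrays of the same line, with AsPC-1 PMA replicate 1 above its group for BUB1B, NDC80 and CCNA2, while UBE2C sits higher on the BxPC-3 PMA arrays.

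Among the 6 kinetochore and centromere genes, NDC80 was called lower in AsPC-1 and none was called in BxPC-3, where 3 had an unadjusted p under 0.05. With the passage as a block, CENPF and NDC80 were called lower in BxPC-3 and CENPF, NDC80, NUF2 and SPC25 in AsPC-1. NDC80, NUF2 and SPC25 encode subunits of the complex that binds microtubules. NDC80 had signals of 316, 150 and 214 in BxPC-3 PMA cells and 512, 530 and 531 in untreated cells, without overlap, for a log2 change of -1.26 ± 0.44 (adjusted p = 0.117). In AsPC-1 the signals were 299, 64.1 and 86.4 after PMA and 646, 384 and 432 untreated. These groups did not overlap either, but the passage 8 array after PMA lay far above the other PMA arrays. The log2 change was -1.97 ± 0.44 (adjusted p = 0.0417), and the call held under 8 of 24 alternative settings, with adjusted p between 1.5e-05 and 0.353. Its partners had changes of -0.35 (NUF2) and -0.25 (SPC25) in BxPC-3 and of -1.06 and -0.81 in AsPC-1, where each group of PMA arrays lay below the untreated ones.

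CENPF, a large kinetochore protein, had signals of 252, 242 and 254 in BxPC-3 PMA cells and 432, 505 and 512 in untreated cells, which did not overlap. Its log2 changes were -0.94 ± 0.31 in BxPC-3 and -1.17 ± 0.31 in AsPC-1 (adjusted p = 0.0946 and 0.0795). With the block the adjusted p was 0.006 and 0.00314, over all alternatives 6.68e-05 to 0.262 and 0.000122 to 0.449. CENPE, the kinetochore motor, had changes of -0.76 in BxPC-3 and -0.52 in AsPC-1, and it was the gene whose change in BxPC-3 lay furthest below that in AsPC-1. CENPA, the histone H3 variant of centromeres, stood out from the other kinetochore genes in BxPC-3. Its signal there was 82.5, 113 and 106 after PMA and 84.0, 93.4 and 39.5 untreated, so the groups overlapped and the change of 0.53 ± 0.32 rested on 1 low untreated array. In AsPC-1 it was 75.0, 51.1 and 64.2 after PMA and 148, 128 and 88.1 untreated, a change of -0.89 ± 0.32 (adjusted p = 0.173).

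The 9 cyclins, mitotic kinases and the survivin gene BIRC5 had a median log2 change of -0.30 in BxPC-3 and -1.05 in AsPC-1. In BxPC-3 0 were called and 2 had an unadjusted p under 0.05, and in AsPC-1 4 were called lower and all 9 had an unadjusted p under 0.05. When the passage was a block, CCNA2 and AURKA were called lower in BxPC-3 and all but AURKB and BIRC5 in AsPC-1. CCNA2, cyclin A2, had signals of 196, 168 and 190 in BxPC-3 PMA cells and 434, 390 and 387 in untreated cells. The change of -1.12 ± 0.32 missed the threshold (adjusted p = 0.0564) but passed in 10 of 24 alternative settings, the passage block among them. In AsPC-1 CCNA2 was 199, 71.1 and 75.7 after PMA and 511, 335 and 377 untreated, a 3.83-fold lower level (log2 change -1.94 ± 0.32, adjusted p = 0.00877). All PMA arrays lay below all untreated arrays in both lines, and the AsPC-1 call held under 21 of 24 alternative settings.

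AURKA, the centrosomal Aurora kinase, had signals of 603, 453 and 555 in BxPC-3 PMA cells and 900, 888 and 696 in untreated cells, a log2 change of -0.62 ± 0.23 (adjusted p = 0.129). In AsPC-1 it was 513, 323 and 270 after PMA and 1056, 798 and 859 untreated, a change of -1.33 ± 0.23 (adjusted p = 0.0108). Neither pair of groups overlapped, and the AsPC-1 call held under 19 of 24 alternative settings. CDK1, the kinase that drives mitotic entry, was 1658, 1383 and 1796 in BxPC-3 PMA cells and 1519, 1724 and 1785 in untreated cells. Those groups overlapped, with a change of -0.06 and a 95% interval of -0.39 to 0.27. In AsPC-1 CDK1 was 782, 1012 and 1007 after PMA and 1889, 1515 and 1795 untreated, without overlap, a change of -0.89 ± 0.15 (adjusted p = 0.011) that held under 20 of 24 alternative settings.

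CCNB1, cyclin B1, had a BxPC-3 log2 change of -0.10 with an interval of -0.48 to 0.29. Its AsPC-1 signals were 888, 917 and 888 after PMA and 2010, 1281 and 1520 untreated, without overlap, a change of -0.81 ± 0.18 (adjusted p = 0.0375). The AsPC-1 call held under 12 of 24 alternative settings. A second CCNB1 probe set had changes of -0.67 in BxPC-3 and -1.26 in AsPC-1. Of 28 such other probe sets above the filter for the 35 genes, 21 had the sign of the one used in BxPC-3 and 28 in AsPC-1. In BxPC-3 the opposite sign came from other probe sets of BIRC5 (0.89), CCNB2 (0.70), NUSAP1 (0.57), ASPM (0.40), CDK1 (0.14 and 0.08) and ECT2 (-0.98). PLK1, a kinase of mitotic entry and spindle assembly, had signals of 102, 37.0 and 25.6 in AsPC-1 PMA cells and 309, 113 and 126 in untreated cells. Its change of -1.76 ± 0.45 did not pass (adjusted p = 0.0634) although the arrays did not overlap, and passed with the passage block (adjusted p = 0.00314, over all alternatives 9.35e-05 to 0.418). CCNB2 (-1.05), NEK2 (-1.39), a kinase of centrosome separation, AURKB (-0.92), the kinase of the chromosomal passenger complex, and BIRC5 (-0.70), its survivin subunit, also missed the threshold in AsPC-1, and in BxPC-3 their changes lay between -0.48 and -0.10.

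The 3 anaphase regulators had median log2 changes of 0.22 in BxPC-3 and -0.36 in AsPC-1. UBE2C was the only gene of the 35 called higher in either line. Its signal was 1400, 1386 and 1260 in BxPC-3 PMA cells and 739, 740 and 499 in untreated BxPC-3 cells, with no overlap and a 2.07-fold higher level (log2 change 1.05 ± 0.19, adjusted p = 0.00683). This call held under all 24 alternative settings, and within passages 7, 9 and 11 the changes were 0.92, 0.90 and 1.33. Its AsPC-1 signals were 530.5, 570 and 739 after PMA and 935, 748 and 683 untreated, so the groups overlapped, and the change of -0.36 ± 0.19 did not pass (adjusted p = 0.373). CDC20 had changes of -0.18 in BxPC-3 and -0.15 in AsPC-1, with intervals of -0.69 to 0.34 and -0.66 to 0.37. PTTG1, securin, had changes of 0.22 and -0.41, neither past the threshold.

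Of the 6 spindle and microtubule genes, HMMR was called lower in both lines and no other was called, although all 6 had an unadjusted p under 0.05 in AsPC-1. The passage block gave calls of ASPM and HMMR in BxPC-3 and of all 6 in AsPC-1, all lower. HMMR encodes RHAMM, a hyaluronan receptor that also acts at the spindle. Its signal was 512.5, 368 and 486 in BxPC-3 PMA cells and 774, 871 and 943 in untreated cells, a log2 change of -0.93 ± 0.19 (adjusted p = 0.0126). Its AsPC-1 signals were 778.5, 680 and 692 after PMA and 2544, 1536 and 1844 untreated, a 2.69-fold lower level (-1.43 ± 0.19, adjusted p = 0.00268). No PMA array reached an untreated array of its line, and the AsPC-1 call held under 23 of 24 alternative settings. The BxPC-3 call held under 20, not with the mean of the probe sets or without BxPC-3 PMA replicate 2 or untreated replicate 2 or 3. ASPM (-1.12), DLGAP5 (-1.07), NUSAP1 (-0.84), PRC1 (-0.79) and TPX2 (-0.71), which bundle, anchor or nucleate spindle microtubules, missed the threshold in AsPC-1, with adjusted p between 0.0514 and 0.111. In BxPC-3 the changes of these 5 lay between -0.88 for ASPM and -0.28 for NUSAP1, and the PMA arrays lay below the untreated arrays for each.

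The 3 cytokinesis genes had the smallest changes of the role groups in AsPC-1 apart from the anaphase regulators, with a median of -0.55, and none was called in either line. Under the passage block ANLN alone was called, lower in AsPC-1. RACGAP1, a centralspindlin subunit, had changes of -0.39 in BxPC-3 and -0.55 in AsPC-1, and anillin (ANLN) -0.46 and -0.65. ECT2, the exchange factor that activates RhoA at the cleavage furrow, was 1070, 886 and 1100 in BxPC-3 PMA cells and 1062, 947 and 828 in untreated cells. In AsPC-1 it was 855, 1004 and 829 after PMA and 1111, 855 and 884 untreated. Both pairs overlapped, with changes of 0.11 and -0.08 and intervals of -0.24 to 0.45 and -0.42 to 0.26.

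The last group holds 2 chromosome proteins and the transcription factor FOXM1. Under the passage block TOP2A was called lower in both lines and MKI67 in AsPC-1. TOP2A, the topoisomerase that untangles sister chromatids, had signals of 1034, 849 and 968 in BxPC-3 PMA cells and 1384, 1358 and 1260 in untreated cells, a log2 change of -0.49 ± 0.25 (adjusted p = 0.289). Its AsPC-1 signals were 443, 252 and 264 after PMA and 1287, 648 and 792 untreated, a change of -1.49 ± 0.25 (adjusted p = 0.0105). The arrays did not overlap in either line, and the AsPC-1 call held under 20 of 24 alternative settings. MKI67, the proliferation antigen Ki-67, was 366, 268 and 282 in AsPC-1 PMA cells and 997, 525 and 508 in untreated cells, a change of -1.08 ± 0.24 (adjusted p = 0.039) that held under 9 of 24 alternative settings. FOXM1, which activates many genes of this list in G2, was 91.5, 95.2 and 101 in AsPC-1 PMA cells and 233.5, 159 and 111 in untreated cells. Its changes of -0.07 in BxPC-3 and -0.73 in AsPC-1 did not pass (adjusted p = 0.909 and 0.165).

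Changes within each passage ran the same way for most of the genes. In BxPC-3 the median change was -0.30, -0.67 and -0.17 in passages 7, 9 and 11, with 28, 33 and 22 of 35 genes lower, against medians of -0.08, 0.02 and 0.03 and shares of 55.4%, 48.9% and 48.4% over all genes tested. Passage 9 thus gave the lowest BxPC-3 values, and BxPC-3 PMA replicate 2 was below its group mean for all but 2 of the 35 genes. In AsPC-1 the median was -1.18, -0.74 and -0.83 in passages 8, 10 and 12, with 35, 33 and 33 genes lower, against -0.04, -0.13 and -0.09 and 53.4%, 58.3% and 55.7% over all genes tested. The exceptions were CDC20 and ECT2 in passage 10 and CDC20 and UBE2C in passage 12. The deviations of the genes from their group means moved together over the 12 arrays, with a median pairwise correlation of 0.69 over 595 pairs, where every pair shares the same arrays. This correlation was not computed for other genes, and the array medians over all genes also shifted. It is therefore not shown to be particular to these 35 genes.

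The change after PMA was compared between the lines as the BxPC-3 response minus the AsPC-1 response. UBE2C was called higher (1 of 35, against 0.317% of all genes) and 0 were called lower, against 0.174%. Its difference of responses was 1.42 ± 0.27 (SE, 95% interval 0.83 to 2.00, adjusted p = 0.0391). At an unadjusted p under 0.05 there were 8 genes higher (CENPA, CCNB1, CDK1, PLK1, AURKA, UBE2C, PTTG1 and TOP2A), against 5.09% of all genes, and 0 lower, against 3.82%. Of the 35 differences 32 were above 0, against 55.6% of all genes, with a median of 0.58, against 0.07, so the change in BxPC-3 was the higher value for most. PLK1 (1.42 ± 0.63), CENPA (1.42 ± 0.45), TOP2A (1.00 ± 0.35) and CDK1 (0.83 ± 0.22) had large differences that did not pass (adjusted p = 0.542, 0.313, 0.404 and 0.164). For BUB1B, TTK and MAD2L1 the differences were -0.02, 0.14 and 0.07, with intervals of -1.35 to 1.31, -0.49 to 0.77 and -0.35 to 0.49. The UBE2C call held under 10 of 23 alternative settings, with adjusted p between 0.00708 and 0.124, and was lost without any 1 array other than AsPC-1 PMA replicate 1 or 3. With the passage as a block UBE2C and TOP2A were called, beside 0.783% of all genes. Without AsPC-1 PMA replicate 1 the calls were CCNA2, PLK1, AURKA, UBE2C and TOP2A, beside 4.43% of all genes.

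Between untreated BxPC-3 and untreated AsPC-1 cells 5 of these genes were called. MAD2L1, PRC1 and DLGAP5 were called higher in BxPC-3 (3 of 35, against 16.8% of all genes) and PTTG1 and HMMR lower (2 of 35, against 15.6%), with a median difference of -0.05, against -0.08 over all genes. DLGAP5, which stabilises spindle microtubules near chromosomes, was 790, 800.5 and 660 in untreated BxPC-3 cells and 563, 241 and 288 in untreated AsPC-1 cells, a log2 difference of 1.13 ± 0.31 (adjusted p = 0.0133). PRC1, the midzone bundling protein, was 1135, 1236 and 1006 in untreated BxPC-3 cells and 896, 547 and 511 in untreated AsPC-1 cells, a difference of 0.83 ± 0.21 (adjusted p = 0.00892), and MAD2L1 differed by 0.54 ± 0.14 (adjusted p = 0.00827). HMMR, given above, ran the other way, at -1.16 ± 0.19 (adjusted p = 0.000344), and PTTG1 at -0.57 ± 0.19 (adjusted p = 0.0368). The lines did not overlap for 3 genes in the higher direction (25.1% of all genes) and 5 in the lower (25.6%), the called genes with BUB1, PLK1 and NEK2. Without AsPC-1 untreated replicate 1 there were 8 higher and 1 lower calls (25.7% of the 35, against 30.9% of all genes), and without AsPC-1 PMA replicate 1 there were 4 and 4 (22.9%, against 40.6%).

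After PMA 12 genes were called between the lines. Between BxPC-3 PMA and AsPC-1 PMA cells 11 genes were called higher in BxPC-3 (31.4% of the 35, against 18.3% of all genes) and HMMR lower (1 of 35, against 15.2%), and 32 of 35 differences were above 0, against 51.5%. The median difference was 0.55, against 0.03 over all genes. DLGAP5 was 568.5, 392.5 and 549 in BxPC-3 PMA cells and 245, 135 and 124 in AsPC-1 PMA cells, a log2 difference of 1.62 ± 0.31 (adjusted p = 0.00122). TOP2A differed by 1.61 ± 0.25, CCNB2 by 1.30 ± 0.30, PRC1 by 1.18 ± 0.21, UBE2C by 1.15 ± 0.19 and FOXM1 by 1.12 ± 0.25, each with no overlap. In all, 13 genes were higher without overlap, against 22.9% of all genes, and 2 lower, against 20.5%. NUSAP1 (0.99), MKI67 (0.92), CDK1 (0.79), ZWINT (0.79) and MAD2L1 (0.61) made up the other calls. Of the 12 calls, those of ZWINT and HMMR were lost under some of the 24 alternative settings, 1 and 2 of them, and the other 10 held under all 24. Since these comparisons share arrays with the PMA comparisons, they are no separate evidence of the PMA changes.

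**Figure D5:**
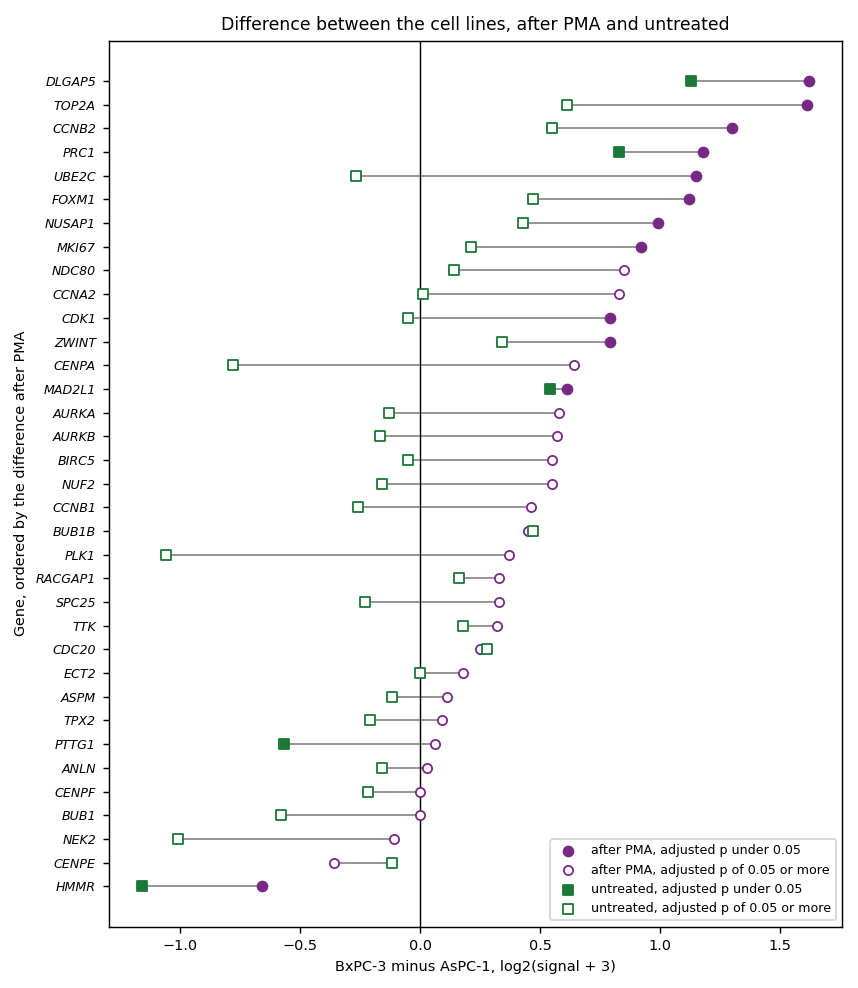
BxPC-3 minus AsPC-1 log2(signal + 3) of each gene after PMA (circles) and untreated (squares), joined by a line and filled where the adjusted p was under 0.05, with genes ordered by the difference after PMA. The circles lie right of the squares for all but BUB1B, CDC20 and CENPE, and 11 filled circles lie right of 0 against 3 filled squares.

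Other genes of the same pathways were read from lists of known members, against shares of all genes called lower of 3.3% in BxPC-3 and 0.721% in AsPC-1 and called higher of 2.52% and 1.24%. At these list sizes 1 call in BxPC-3 is near that background. At an unadjusted p under 0.05 the AsPC-1 shares were 10.1% lower and 6.43% higher. Of 24 further passenger complex, motor and spindle genes, 1 was called lower in BxPC-3 (median -0.38), the kinesin KIF18B (-1.02), and 10 in AsPC-1 (median -1.03), among them KIF15 (-1.90) and KIF11 (-1.57). KIF18B was called lower in both lines, and none of the 24 was called higher in either line. Of 32 further kinetochore and checkpoint genes, 3 were called lower in BxPC-3, among them CENPI (-1.79) and CENPL (-1.05), and 2 in AsPC-1, HJURP (-1.36), the CENPA chaperone, and SPDL1 (-1.01). Of 16 APC/C subunits and partners, 4 were called lower in BxPC-3, among them the subunit CDC27 (-1.13) and the inhibitor FBXO5 (-1.06), and 0 in AsPC-1, where 6 had an unadjusted p under 0.05 in that direction. Of 18 cohesin, condensin and separase genes, the cohesin SMC3 (-1.10) was called lower in BxPC-3 and the condensin NCAPH (-1.21) in AsPC-1. SMC3 also had a called difference of responses, at -1.59 ± 0.24 (adjusted p = 0.0165).

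Among 17 regulators of mitotic entry, the stress-responsive kinase PLK3 was called higher in BxPC-3 (1.60) and 3 were called lower, among them WEE1 (-1.11), which inhibits CDK1. In AsPC-1, 3 were called lower, among them the cyclin F gene CCNF (-1.69) and BORA (-1.37), an activator of Aurora A. CCNF and BORA were also called lower in BxPC-3. In AsPC-1 0 were called higher. At an unadjusted p under 0.05, 2 of the 17 were higher there, against 6.43% of all genes. The highest AsPC-1 change of the list was 2.19. Of 19 RB, E2F and DREAM regulators, E2F8 (-1.18) was called lower in BxPC-3 and 0 were called in AsPC-1. There 2 were higher and 3 lower at an unadjusted p under 0.05, against 6.43% and 10.1% of all genes. MYBL2, the B-MYB gene, had changes of 0.47 and -0.67 in BxPC-3 and AsPC-1, and E2F1 of 0.28 and -0.08, none past the threshold. Of 15 G1 cyclins, kinases and inhibitors, CDKN1A, the inhibitor p21, was called higher in both lines. Its signal was 2491, 2339 and 2342 in BxPC-3 PMA cells and 281, 327.5 and 246 in untreated cells (log2 change 3.06 ± 0.58), and 613, 2660 and 2809 in AsPC-1 PMA cells and 45.1, 239 and 194 in untreated cells (3.66 ± 0.58). Of 25 DNA replication genes, 2 were called lower in BxPC-3, GMNN (-1.44) and RFC4 (-1.10), and 0 in AsPC-1. There 11 were lower at an unadjusted p under 0.05, against 10.1% of all genes. Between the lines the same 25 replication genes were counted without PMA too, with 16 called higher (16.8% of all genes) and 0 lower (15.6%) in untreated BxPC-3 cells against untreated AsPC-1 cells, and 18 higher (18.3%) and 1 lower (15.2%) after PMA.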

How the data were processed

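RNA of BxPC-3 and AsPC-1 cells was hybridised to Affymetrix arrays, 12 in all. The deposited table gives signal intensity on a linear scale for 54675 probe sets, made by the authors with MAS5, per the submitters' processing notes. The sources name no MAS5 version, detection calls were not used, and array signal carries no read depth, so the number of arrays limits the precision. Of 41091 probe sets with 1 gene symbol, 41043 matched the RefSeq gene table. Signals were turned into log2(signal + 3), with no further normalization. Fold changes on this scale understate those of dim genes. Genes above the array's 40th percentile on at least 3 arrays were tested. Probe sets marked s or x, 17 of the 35 used, may hybridise with related transcripts too.

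The fit estimated the group means over the 12 arrays, using limma 3.58.1 under R 4.3.3 (lmFit, eBayes with trend, 8 residual degrees of freedom), two-sided, with Benjamini-Hochberg adjustment over 16099 genes and a threshold of 0.05. The ± values are SE. With 3 arrays a group, p = 0.1 is the smallest that an exact permutation test allows. The script was tested on simulated data with 200 changed genes in each of 5 rounds, in which each gene varied independently. In the AsPC-1 PMA comparison, 22.4% of the 2-fold and 66.4% of the 4-fold changes were called. A gene that was not called may therefore have changed. The genes, lists and rules were chosen with earlier results of these data known: all 35 genes may be named, and from each pathway list up to 2 genes per comparison with the largest called change, with CDKN1A, MYBL2 and E2F1 whatever their result. Same-numbered arrays of a line share a passage, per the labels, which pairs them. The correlations of their deviations across all genes tested were 0.411, 0.206 and 0.157 for AsPC-1, and -0.054, -0.126 and -0.059 for BxPC-3. Across the 35 genes they were 0.591, 0.468 and 0.301 for AsPC-1, and -0.203, 0.401 and 0.069 for BxPC-3. P-values measure the spread between passages. Python 3.11.15 with matplotlib 3.10.9 drew the figures.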

Additional observations from a re-analysis of the deposited data

Results flagged for a closer look

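The response of UBE2C to PMA was called different between the lines in a test of the difference itself (limma, adjusted p = 0.0391). This call held under 10 of 23 alternative settings, with adjusted p between 0.00708 and 0.124. It was lost with quantile normalization, with median centring, without the intensity trend and without most single arrays. UBE2C had 1 probe set, so no other probe set could be compared. The BxPC-3 response minus the AsPC-1 response was 1.42 on the log2 scale, with a change of 1.05 ± 0.19 in BxPC-3 and -0.36 ± 0.19 in AsPC-1 (SE, limma). The 3 BxPC-3 passages changed by 0.92, 0.90 and 1.33, and the AsPC-1 passages by -0.81, -0.39 and 0.11.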

How the results depend on the processing

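The main counts of called genes were 5 for PMA in BxPC-3, 10 for PMA in AsPC-1, 5 between untreated lines, 12 between lines after PMA and 1 for the difference of responses. With the passage as a replicate block the counts were 11, 25 and 2 for PMA in BxPC-3, PMA in AsPC-1 and the difference of responses, and with it as a random term (correlation 0.163) the 2 line comparisons gave 5 and 12 again. Leaving out 1 array at a time gave 2 to 11 for PMA in BxPC-3, 2 to 27 for PMA in AsPC-1, 4 to 9 between untreated lines, 11 to 16 after PMA and 0 to 5 for the difference of responses. Leaving out both AsPC-1 arrays of passage 8, an alternative chosen after seeing the data, gave 19, 26, 14, 21 and 8 in the same order. The shares of all genes called in that setting were 23.4%, 21.4%, 44.4%, 47.3% and 7.37%. Between untreated lines the 14 genes were 40% of the 35, below the share of all genes. The arrays of a comparison alone gave 18 in BxPC-3 and 0 in AsPC-1 (29 at an unadjusted p under 0.05). The mean of a gene's probe sets gave 3 in BxPC-3 and 6 in AsPC-1. Without the intensity trend there were 3, 5 and, for the difference of responses, 0 (5 at an unadjusted p under 0.05). Median centring gave 6 in AsPC-1 and 0 for the difference of responses (5 unadjusted), where quantile normalization also gave 0 (7 unadjusted). A 2-fold minimum left 3 in BxPC-3 (8.57% of the 35, against 4.01% of all genes in either direction). It left 2 between untreated lines (5.71%, against 22.3%) and 6 after PMA (17.1%, against 23.1%). The counts over all genes tested moved too. For PMA in BxPC-3 the main count was 937, with 1645 under the block, 325 to 2394 leaving out 1 array, 3769 without passage 8 and 3535 from its own arrays. For PMA in AsPC-1 it was 316, with 904, 61 to 3147, 3442 and 0 (1526 unadjusted) in the same settings, 179 from mean probe sets and 113 without the trend. For the difference of responses it was 79, with 126 under the block, 9 to 713 leaving out 1 array and 1187 without passage 8. Leaving out 1 array gave 4124 to 6542 between untreated lines and 4300 to 6542 after PMA, against 5216 and 5390. Among the 35 genes and these alternatives, BIRC5 alone had a called value of the opposite sign, at 1.14 (adjusted p = 0.00331) between untreated lines when probe sets without s or x mark were preferred, against -0.05 with the probe set used. Why the counts moved between these settings was not tested. Depth does not apply, and signal over background was not measured.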
